A study of Mus musculus with 12 samples.

Results

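Muc1 encodes the transmembrane mucin MUC1, and its RNA was followed here across 12 libraries of the mouse mammary carcinoma line 4T1. It is 1 gene of the 35521 genes whose reads were summed and of the 12555 genes tested. It was chosen by its measured CPM, which differed between the groups, so its levels and fold changes are given as a description, with no test.

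4T1 is an established line from a mammary tumor of a BALB/c mouse. In the first group of 4 libraries, 4T1 cells had shared a Transwell for 48 h with Gr1+ cells taken from 4T1 tumors, with a membrane of 0.4 µm pores between them (Tu-Gr1+CD11b+–primed 4T1 cells, written Tu-primed below). In the second group of 4, the Gr1+ cells came from the spleens of tumor-bearing mice (Spl-Gr1+CD11b+–primed, written Spl-primed), and the third group of 4 was parental 4T1 cells left without coculture. Per the labels, the Gr1+ cells were isolated magnetically from Balb/C mice at day 21 of tumor growth, and no group carried an engineered allele or received a drug. All 12 libraries are of 1 cell line in culture. The sources used here do not say whether the 4 libraries of a group came from separate cultures, so the p-values below measure the spread between these libraries, which may be technical.

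MUC1 is made as 1 chain that cleaves itself into a long extracellular subunit and a shorter subunit that spans the membrane and ends in a cytoplasmic tail. The extracellular part is densely O-glycosylated and lines the apical surface of glandular epithelia, including the mammary gland. In carcinomas the protein is often more abundant, carries shorter glycans and spreads over the whole cell surface, where lectins can bind it and its tail can meet kinases and catenins.

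In the GRCm38 annotation Muc1 (ENSMUSG00000042784) lies on the plus strand of chromosome 3 between 89229057 and 89233381. Its main transcript, Muc1-201, has 7 exons and 2242 bases. Exon 2, from 89229911 to 89231214, is coding throughout and holds 1304 of those bases. The 250 bases upstream of the RefSeq start are shown because the next question is whether genes that varied like Muc1 share letters with it there. They cover chr3:89228806-89229055 on the plus strand (RefSeq, GRCm38.p6). Capitals mark every match, on either strand, to the motifs searched that were found.

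Muc1 upstream region: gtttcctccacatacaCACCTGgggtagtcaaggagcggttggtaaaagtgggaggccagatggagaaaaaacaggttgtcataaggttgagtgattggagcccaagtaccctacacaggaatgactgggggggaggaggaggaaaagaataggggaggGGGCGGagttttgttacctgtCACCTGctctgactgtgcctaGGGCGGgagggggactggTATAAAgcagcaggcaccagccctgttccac

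GGGCGG, the GC box bound by Sp1-type factors, occurs at positions -91 to -86 and -49 to -44, and 32.7% of the 32851 RefSeq mouse promoter windows of this length hold it. TATAAA, the TATA box, occurs at -31 to -26 and is held by 12.4% of windows. CACCTG, an E-box that Zeb-type repressors can bind, occurs at -234 to -229 and -70 to -65 and is held by 17.2%. The letters TTCNNNGAA (STAT-type sites, 7.02% of windows), TTC and GAA with any 4 bases between them (the same with a wider spacer, 5.85%), GAAA and GAAA with any 2 bases between them (the core of the interferon-stimulated response element, 2.98%) and the NF-kappaB consensus (3.9%) are not in this window. The window is 54.8% G or C, and the median over all windows is 52.4%.

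The 12 libraries held between 24566183 and 31637755 estimated reads, and the scaling factors between libraries ranged from 0.88 to 1.053. Of 9 epithelial markers of 4T1, 8 passed the filter on low counts and Krt5 was at 0 in every library. Their summed level was 2640 to 3930 CPM (estimated reads scaled by library size) in parental libraries, 2370 to 2560 in Spl-primed libraries and 1870 to 2290 in Tu-primed libraries, and this sum is mostly Krt8, Krt18 and Krt7. None of the 8 was called between Tu-primed and Spl-primed cells. Against parental cells these keratins and Cdh1 were lower in Tu-primed cells, at -0.78, -0.68, -0.61 and -0.31 on the log2 scale, Cldn4 was higher at 0.41, and Epcam stood at 0.11 and was not called. Of 16 granulocyte and monocyte markers, 2 passed the filter, with a summed level of 5.35 to 8.12 CPM in Tu-primed, 4.99 to 7.41 in Spl-primed and 5.49 to 6.18 in parental libraries. The 2 were Cxcr2, with means of 2.40, 2.16 and 2.13 CPM in the same order, and Cd68, with 3.59, 2.96 and 3.13. Neither was called in any comparison. Ptprc and Csf1r reached up to 10 reads, in parental libraries. The neutrophil genes Mpo, Elane, Camp, Ngp, Retnlg and Mmp8 and the monocyte receptor gene Ccr2 were at 0 in all 12 libraries. In bulk RNA, fewer cells of a type and less RNA per cell cannot be told apart.

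Muc1 was low in parental and Spl-primed cells, with overlapping values, and several-fold higher in Tu-primed cells. In parental libraries it had 15, 13, 13 and 11 reads, or 0.506, 0.535, 0.545 and 0.44 CPM. In Spl-primed libraries it had 14, 20, 24 and 24 reads, or 0.439, 0.726, 0.872 and 0.835 CPM. In Tu-primed libraries it had 199, 182, 251 and 98 reads, or 7.06, 7.07, 8.77 and 3.40 CPM. The Tu-primed libraries lay above both other groups without overlap, as they did for 8.51% of all genes against Spl-primed and for 28.6% against parental cells. The ranges of the Spl-primed and parental libraries did overlap, since Spl-primed replicate 1 had the lowest CPM of all 12.

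The group means were 6.58 ± 2.26 CPM (SD, n = 4) in Tu-primed cells, 0.718 ± 0.196 in Spl-primed cells and 0.506 ± 0.0476 in parental cells. The Tu-primed mean was 9.16 times the Spl-primed mean and 13 times the parental mean. The lowest Tu-primed library was still 3.9 times the highest Spl-primed library and 6.24 times the highest parental one. In the fit across all genes, the log2 fold change was 3.20 (SE 0.28, 95% interval 2.64 to 3.75) between Tu-primed and Spl-primed cells and 3.69 (SE 0.30, 3.10 to 4.28) between Tu-primed and parental cells. Between Spl-primed and parental cells it was 0.49 (SE 0.36, -0.21 to 1.19). Muc1 was chosen by these values, so the intervals describe the fit and are not a test. The first of these fold changes ranked 23 and the second 36 among the 12555 genes ordered by log2 fold change from the highest. The third ranked 1872. The median log2 fold change of all tested genes was -0.01, 0.02 and 0.02.

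**Figure D1:**
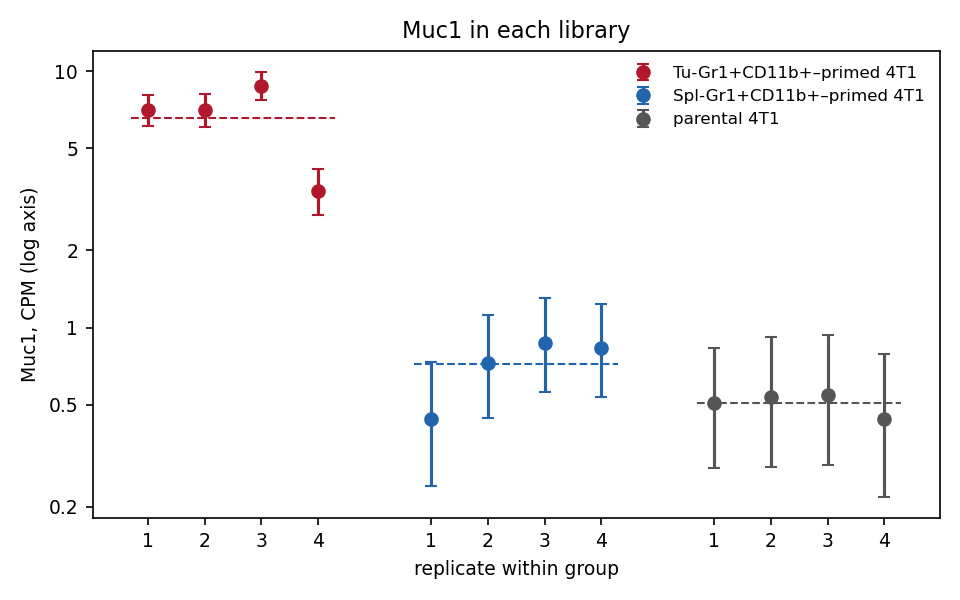
Muc1 in each of the 12 libraries, with CPM on a log axis; bars are 95% Poisson intervals and dashed lines group means. The 4 Tu-primed libraries sit between 3.40 and 8.77 CPM, and the 8 Spl-primed and parental libraries between 0.439 and 0.872 CPM.

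Tu-primed replicate 4 stood below the other 3 Tu-primed libraries. Its 98 reads give a 95% Poisson interval of 2.76 to 4.14 CPM, which does not meet the interval of 6.11 to 8.11 of replicate 1, 6.08 to 8.17 of replicate 2 or 7.72 to 9.93 of replicate 3. These intervals cover counting error only. The coefficient of variation among Tu-primed libraries was 34.4%, where counting alone would give 7.4%. It was 27.3% against 22% in Spl-primed cells and 9.4% against 27.8% in parental cells. Without Tu-primed replicate 4 the log2 fold changes were 3.41 against Spl-primed and 3.90 against parental cells.

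At least 89.2% of the Muc1 reads of each library were placed on Muc1-201, the protein-coding transcript. The short non-coding transcript Muc1-203 received 5.228 reads in Tu-primed replicate 2 and 1.406 in parental replicate 2 and none elsewhere, and the third annotated transcript was at 0 in every library. Per length, Muc1 stood at 4.77 ± 1.72 TPM (the length-scaled abundance, SD, n = 4) in Tu-primed, 0.474 ± 0.13 in Spl-primed and 0.31 ± 0.142 in parental cells. Parental replicate 2, where the short transcript took some reads, had 0.515 TPM, against 0.19 to 0.274 in the other 3 parental libraries. On the TPM scale 15.4 to 26.1% of tested genes lay below Muc1 in Tu-primed libraries, against 3.98 to 7.53% in Spl-primed and 5.74 to 8.75% in parental libraries. Muc1 was therefore a low-abundance transcript even where it was highest. In the deposited normalized counts it stood at 177 ± 63.5 (SD, n = 4), 18.4 ± 5.04 and 15.8 ± 5.73 in the same order.

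In primed cells Muc1 made up most of the summed TPM of the transmembrane and gel-forming mucins found, and its share in parental libraries reached 87.5%. Of 28 other genes on the mucin list, 25 were found in the annotation and 7 passed the filter. None of those 7 was listed under transmembrane or gel-forming mucins. Cd164, Mcam, Podxl, Cd34 and Spn were listed apart as adhesion proteins, some of them cell-surface sialomucins, and the other 2 as secreted. Among the 18 that did not pass, 7 were at 0 in every library, namely the transmembrane mucin genes Muc3a and Muc16, the gel-forming mucin genes Muc5ac, Muc5b and Muc6, and Mucl1 and Emcn. Another 6 had at most 3 reads in any library. The highest counts were 7 for Muc13 and Muc19 and 4 for Muc3, Muc15 and Pdpn. A count of 0 allows up to 3 reads, or at most 0.126 CPM. In TPM, Muc1 made up 92.8 to 97.7% of the summed level of 13 transmembrane and gel-forming mucins in Tu-primed libraries. It made up 74.2 to 85.4% in Spl-primed libraries and 35.6 to 87.5% in parental libraries. In both of these groups the sums rest on few reads. Of 10 other transmembrane mucins listed, 7 were in the annotation and enter the sum.

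The 7 other genes of the mucin list that could be tested stood between -0.50 (Mucl3) and 0.23 (Cd164) on the log2 scale between the primed groups. Between Tu-primed and Spl-primed cells 1 of the 7 was called higher and none lower, where 4.66% of all genes were called higher and 2.97% lower (edgeR's quasi-likelihood test, Benjamini-Hochberg adjusted p under 0.05), and the median of the 7 was 0.15. That gene was Cd164, a sialomucin of lysosomes and the cell surface, at a log2 fold change of 0.23 (adjusted p = 0.0493 by edgeR). The Cd164 call was lost with limma-voom (adjusted p of 0.0541) and on leaving out any Spl-primed library, Tu-primed replicate 1, 2 or 3, or parental replicate 1 or 3, with an adjusted p of 0.172 without Tu-primed replicate 3. Ovgp1, a secreted mucin-domain glycoprotein of the oviduct, had 2.45, 3.26, 3.08 and 2.95 CPM in Tu-primed, 2.45, 3.09, 3.56 and 2.89 in Spl-primed and 0.472, 0.7, 0.377 and 0.12 in parental libraries. Both primed groups lay above parental cells, by 2.80 (adjusted p = 4.68e-06 by edgeR) and 2.83 (9.31e-06) on the log2 scale, and the primed groups overlapped each other.

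Against parental cells, where Tu-primed cells had 31.2% of all genes higher and 28.0% lower, 4 of the 7 rose and 1 fell. The other risers were Cd164 (0.31), the adhesion molecule gene Mcam (0.38) and Cd34 (0.96), a stem cell and endothelial sialomucin. Podxl, encoding the anti-adhesive podocalyxin, fell by 0.38 on the log2 scale (adjusted p = 0.000338 by edgeR). In TPM it was not lower, at 27.7 in Tu-primed and 25.5 in parental cells. In Spl-primed against parental cells 2 of the 7 rose and 2 fell, where 25.7% of all genes were called higher and 22.5% lower. The fallers were Podxl (-0.28) and Spn (-0.22, adjusted p = 0.0395 by edgeR). The Spn call was lost in 9 of 21 other settings, at an adjusted p of 0.124 without parental replicate 4. Cd34 rose by 0.80 on the log2 scale (adjusted p = 0.0356 by edgeR), a call lost without Spl-primed replicate 4 (adjusted p of 0.107), parental replicate 3 (0.103), Spl-primed replicate 2 (0.067) or parental replicate 4 (0.0683).

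Few of the genes that build O-glycans on MUC1 were called between the primed groups, as among all genes. Of 35 listed, 34 were found and 19 tested. Between Tu-primed and Spl-primed cells 1 rose and 1 fell, beside 4.66% and 2.97% of all genes, and the median log2 fold change was 0.10. St3gal1, which caps the core 1 disaccharide with sialic acid and ends its extension, had 251, 237, 251 and 222 CPM in Tu-primed and 192, 191, 156 and 205 CPM in Spl-primed libraries. The primed groups did not overlap, as for 8.51% of all genes that lay higher, and the log2 fold change was 0.37 (SE 0.07, adjusted p = 0.00634 by edgeR). St6galnac4, which adds sialic acid to the already sialylated core 1 glycan, had 16.3 to 17.7 CPM in Tu-primed and 19.2 to 21.8 CPM in Spl-primed libraries, which 8.51% of all genes matched in lying lower without overlap, at a log2 fold change of -0.31 (SE 0.06, adjusted p = 0.00774 by edgeR). With transcript-length offsets in DESeq2 that call was lost, at an adjusted p of 0.272.

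Against parental cells 7 of the 19 O-glycosylation genes rose and 5 fell in Tu-primed cells, near the 31.2% and 28.0% of all genes. In Spl-primed cells 4 rose and 4 fell, near the 25.7% and 22.5% of all genes. Both primed groups had higher Galnt3 (0.45 and 0.31) and Galnt11 (0.53 and 0.47), which attach the first GalNAc sugar, higher St6galnac2 (0.82 and 0.72), a sialyltransferase, and higher Gcnt1 (0.89 and 0.80), which starts core 2 branches. The Gcnt1 call in Spl-primed cells was lost with length offsets in DESeq2, at an adjusted p of 0.0883. Both groups had lower Galnt10 (-0.48 and -0.44), St3gal2 (-0.24 and -0.21) and St6galnac4 (-0.80 and -0.48). In TPM St3gal2 was not lower, at 28.4 in Tu-primed, 26.7 in Spl-primed and 26.1 in parental cells. Galnt2, another enzyme of the first step, fell by 0.79 and by 1.20 on the log2 scale (adjusted p = 0.0236 and 0.00325 by edgeR), and the first of these calls was lost without parental replicate 3 (0.0989) or Tu-primed replicate 1 (0.0538). These values share the parental libraries. Both genes of core 1 synthesis, C1galt1 and its chaperone C1galt1c1, rose in Tu-primed cells, with 0.30 (adjusted p = 0.0136 by edgeR) and 0.20 (0.0313). In Spl-primed cells C1galt1 stood at -0.02 and C1galt1c1 at 0.09, and neither was called.

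Of 37 genes for proteins that cut, bind or signal with MUC1, 34 were tested, and between Tu-primed and Spl-primed cells 4 were called higher and 1 lower, with a median log2 fold change of 0.03, where 4.66% of all genes were called higher and 2.97% lower. Of the 4, 3 encode lectins. The genes of 2 of these lie near each other on the plus strand of chromosome 1, Sele from 164048234 and Selp from 164115264. Selp, encoding P-selectin, an adhesion receptor best known from platelets and endothelium, had 43.3, 44.9, 52.6 and 31.1 CPM in Tu-primed libraries, 11.2 to 13.7 in Spl-primed and 11 to 15.9 in parental libraries. Sele, encoding the endothelial E-selectin, had 30.6, 27.8, 30.5 and 21.8 CPM in Tu-primed, 10.7 to 12.6 in Spl-primed and 9.35 to 12.6 in parental libraries. Lgals9, encoding the galactose-binding galectin-9, had 50.6, 35.7, 29.4 and 16.1 CPM in Tu-primed, 6.28 to 8 in Spl-primed and 7.23 to 8.73 in parental libraries. For all 3 the Tu-primed libraries lay above both other groups, as for 8.51% of all genes against Spl-primed and 28.6% against parental cells. Replicate 4 was the lowest of the Tu-primed libraries, as it was for Muc1.

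The log2 fold changes between Tu-primed and Spl-primed cells were 1.80 for Selp (SE 0.14, adjusted p = 9.73e-06 by edgeR), 1.23 for Sele (SE 0.11, 1.71e-05) and 2.21 for Lgals9 (SE 0.25, 9.33e-05). Egfr, a receptor tyrosine kinase, was called higher at 0.45 (SE 0.12, adjusted p = 0.0368 by edgeR) and Lyn, a Src-family kinase, lower at -0.27 (SE 0.06, 0.013). Neither of the kinase calls was firm. The Egfr call was lost on leaving out Tu-primed replicate 1, 2 or 3 or Spl-primed replicate 2, 3 or 4, at an adjusted p of up to 0.12 without Tu-primed replicate 3, and that of Lyn was lost without the same library, at 0.0555.

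Against parental cells 11 of the 34 rose and 13 fell in Tu-primed cells, beside 31.2% and 28.0% of all genes. All 4 sheddases listed, the proteases that release the extracellular part, were among the risers, with Adam9 at 0.66, Adam10 at 0.33, and Adam17 and Mmp14 at 0.25 each. Among gamma-secretase genes, whose complex cuts the remaining stub in the membrane, Ncstn rose (0.61) and Psen2, Aph1a and Psenen fell (-0.71, -0.24 and -0.30). In TPM Aph1a and Psenen were not lower, at 62.1 and 89.3 in Tu-primed against 52.7 and 79.1 in parental cells. The chaperone genes Hspa8 and Hsp90aa1 fell by 0.60 and 0.45 on the log2 scale. In Spl-primed against parental cells 4 rose and 10 fell, beside 25.7% and 22.5% of all genes. Trp53, encoding the tumor suppressor p53, rose by 1.23 there and by 1.08 in Tu-primed cells, Adam9 by 0.45 and Ncstn by 0.54, while the 3 selectin and galectin genes stood at -0.20 (Selp), 0.09 (Sele) and -0.15 (Lgals9) and were not called.

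Of 14 transcription factors listed as regulators of the MUC1 gene, 12 were tested, and 3 rose and none fell between Tu-primed and Spl-primed cells, with a median log2 fold change of 0.02, where the shares of all genes were 4.66% and 2.97%. Stat3, which carries signals of the IL-6 family of cytokines, had 168, 163, 174 and 128 CPM in Tu-primed, 68.1 to 77.3 in Spl-primed and 53.2 to 64.9 in parental libraries. Hif1a, the oxygen-regulated subunit of the hypoxia factor, had 793, 756, 864 and 595 CPM in Tu-primed, 427 to 533 in Spl-primed and 551 to 584 in parental libraries. In both genes no Tu-primed library reached down to the other groups, as for 8.51% of all genes against Spl-primed and 28.6% against parental cells. Replicate 4 was again the lowest of the 4 Tu-primed libraries.

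The log2 fold changes between Tu-primed and Spl-primed cells were 1.12 for Stat3 (SE 0.09, adjusted p = 9.73e-06 by edgeR) and 0.64 for Hif1a (SE 0.10, 0.000753). The GC-box factor genes Sp1 and Sp3 stood at 0.07 and 0.09, and the repressor gene Zeb1, at about 0.5 CPM in every group, at -0.02. Against parental cells 6 rose and 3 fell in Tu-primed cells, beside 31.2% and 28.0% of all genes, with Stat3 at 1.43, Hif1a at 0.42 and the NF-kappaB gene Nfkb1 at 0.25. Gata3, a factor of luminal mammary cells, fell by 0.39 and Rela, the other NF-kappaB subunit gene, by 0.32. In TPM neither was lower: Gata3 averaged 57.0 in Tu-primed, 58.6 in Spl-primed and 53.9 in parental cells. Rela averaged 66.1, 70.0 and 59.2 in the same order. In Spl-primed against parental cells 3 rose and 2 fell, beside 25.7% and 22.5% of all genes, with Stat3 at 0.31, Nfkb1 at 0.20 and Runx2 at 0.32, Gata3 at -0.34 and Rela at -0.23. The Stat3 and Runx2 calls there were lost with length offsets in DESeq2, at adjusted p of 0.153 and 0.339, as was that of Rela, at 0.0943.

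Taking the mucin, O-glycosylation, partner and regulator genes without Muc1, 72 of 110 were tested. Between Tu-primed and Spl-primed cells 12.5% of them were called higher and 2.78% lower, with a median log2 fold change of 0.04. Against parental cells the shares were 38.9% and 30.6% in Tu-primed (median 0.07) and 18.1% and 25% in Spl-primed cells (median -0.06). Over all genes the shares were 4.66% higher and 2.97% lower between the primed groups, 31.2% and 28.0% in Tu-primed against parental cells, and 25.7% and 22.5% in Spl-primed against parental cells. None of the 72 had a log2 fold change between Tu-primed and Spl-primed cells as high as the 3.20 of Muc1. The lists were written with earlier results of these data known, so their shares are a description.

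Within the Tu-primed group Muc1 was set beside lists of genes that interferons and STAT3 raise. All values here are log2 CPM relative to the parental mean. Muc1 stood at 3.63, 3.63, 3.94 and 2.59 in Tu-primed and at -0.17, 0.47, 0.71 and 0.65 in Spl-primed libraries. The mean of 22 interferon-stimulated genes was 4.37, 3.82, 3.49 and 2.18 in Tu-primed and 0.26, 0.33, 0.13 and 0.57 in Spl-primed libraries. The mean of 13 tested STAT3 target genes was 1.18, 1.17, 1.26 and 0.90 in Tu-primed and 0.02, 0.08, 0.14 and 0.09 in Spl-primed libraries. Replicate 4 was the lowest Tu-primed library in all 3. Replicate 3 was the highest for Muc1 and for the STAT3 list, and replicate 1 for the interferon list.

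In Tu-primed cells every one of the 22 genes of the interferon list rose, against Spl-primed (median log2 fold change 3.41) and against parental cells (3.89). Between Spl-primed and parental cells 2 of the 22, Irf9 and Stat2, were called higher (median 0.28), and with limma-voom Irf9 was not (adjusted p = 0.0668). Of the 13 STAT3 targets 10 were called higher and none lower in Tu-primed cells against either group (medians 0.94 and 0.90). In Spl-primed against parental cells 5 were higher and 4 lower (0.09). Over all genes 4.66% were called higher and 2.97% lower between the primed groups. The shares were 31.2% and 28.0% in Tu-primed and 25.7% and 22.5% in Spl-primed against parental cells. Both lists were written with earlier results of these data known. Whether either set of factors acts on Muc1 was not tested.

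**Figure D2:**
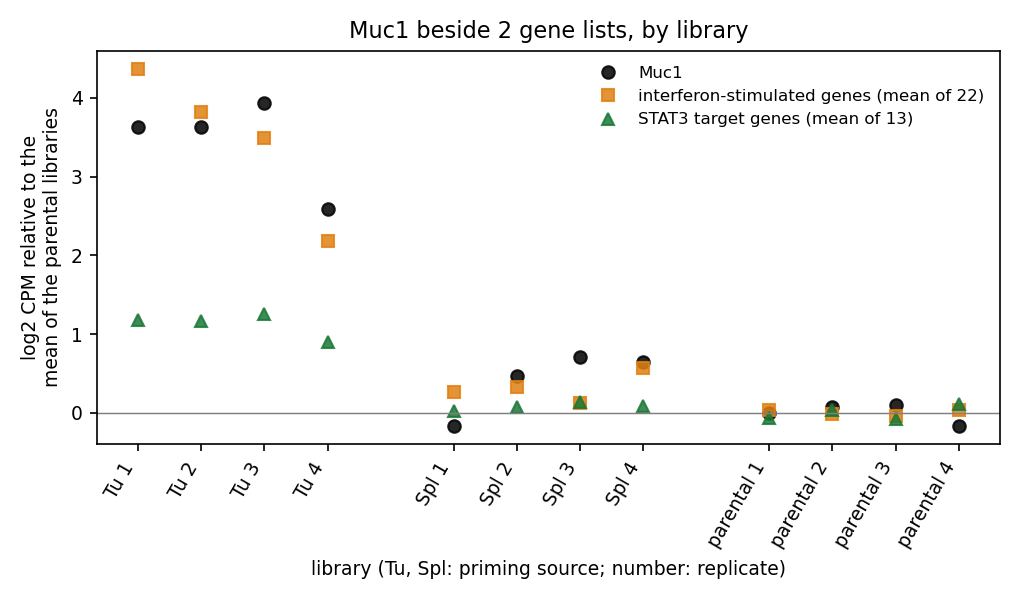
Muc1 and the means of the interferon-stimulated and STAT3 target lists in each library, as log2 CPM relative to the parental mean. Tu-primed replicate 4 is the lowest of its group in each, at 2.59 for Muc1, 2.18 for the interferon list and 0.90 for the STAT3 list.

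The genes most like Muc1 were sought over the 12 libraries by the root mean square difference of log2 CPM relative to the parental mean. The median over all genes was 2.03, and a gene that stayed at its parental level would stand at 2.04. The 10 nearest were Irf9 (0.334), Apol9a (0.365), F5 (0.379), Xaf1 (0.394), Phf11d (0.416), Ifi27 (0.423), Ly6a (0.425), Dhx58 (0.441), Steap4 (0.470) and Oas1g (0.494). All 10 were called higher in Tu-primed than in Spl-primed cells, which the choice by likeness to Muc1 fixes. Irf9 encodes the DNA-binding subunit of the interferon-activated factor ISGF3, Dhx58 a sensor of viral RNA and Oas1g an enzyme of the antiviral 2-5A system. Xaf1, a pro-apoptotic gene, and Ifi27 are also raised by interferon, F5 encodes coagulation factor V, Ly6a the surface antigen Sca-1, and Steap4 a metalloreductase. F5 starts at 164151838 on the plus strand of chromosome 1, just after Selp, which ends at 164150026.

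Irf9 had 62.2, 53.1, 42.2 and 27.8 CPM in Tu-primed, 6.39 to 8.31 in Spl-primed and 3.64 to 4.53 in parental libraries. F5 had 19.8, 20.7, 30.9 and 9.30 CPM in Tu-primed, 1.89 to 4.42 in Spl-primed and 1.84 to 2.39 in parental libraries. F5 and Steap4 shared with Muc1 its order in the Tu-primed libraries, with replicate 3 highest and replicate 4 lowest. Steap4 stood at 3.31, 3.32, 3.41 and 2.83 on the log2 scale relative to the parental mean. Irf9 was highest in replicate 1, as the interferon list was. Ranked instead by Pearson's r over the 12 libraries, which ignores the size of the change, 3 of the 10 were shared (Oas1g, Xaf1 and Ifi27) and the others were Ackr3, Phyh, Clu, P2ry6, Socs3, Saa3 and Osmr. These correlations rest on 3 groups of libraries and are a description.

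**Figure D3:**
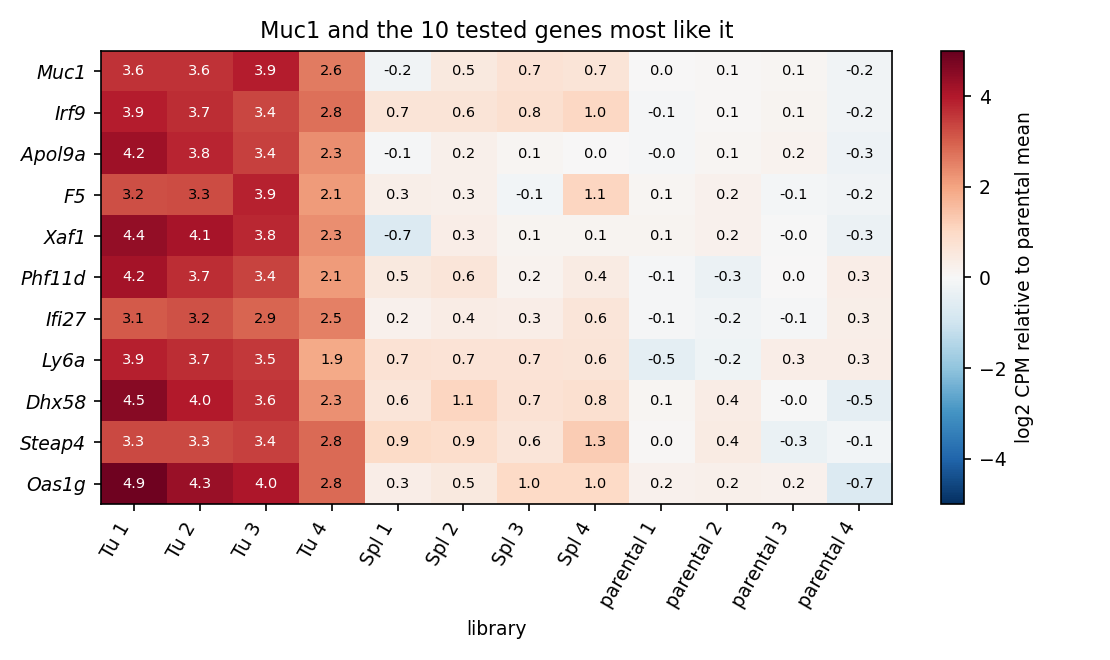
Muc1 and the 10 genes most like it over the 12 libraries, as log2 CPM relative to the parental mean (colour and printed value). Each is high in the 4 Tu-primed libraries, lowest of these in replicate 4, and between -0.68 and 1.28 in the Spl-primed libraries.

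Of these 10 genes 7 had a RefSeq promoter window. The letters of the upstream region of Muc1 printed above were set beside theirs. TTCNNNGAA was found in Steap4, its form with the wider spacer in Oas1g and the response element core in Apol9a and Oas1g, none of which is in the window of Muc1. The GC box GGGCGG was found in Irf9, F5 and Xaf1, TATAAA and the NF-kappaB consensus in Steap4 and CACCTG in Irf9. A match is a description of these letters and not evidence of a bound site.

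The genes around Muc1 differed less between the primed groups. Of 14 genes within 100 kb, 13 were tested and Pklr was at 0. Between Tu-primed and Spl-primed cells 1 of the 13 was called higher and none lower, beside 4.66% and 2.97% of all genes. Their median log2 fold change was -0.10. The gene called was Thbs3, encoding an extracellular matrix glycoprotein, which ends 2219 bases before Muc1 on the same strand. It had 7.13, 7.81, 8.84 and 6.56 CPM in Tu-primed and 4.30, 5.78, 5.63 and 4.80 in Spl-primed libraries. Parental libraries had 4.45, 3.67, 3.48 and 3.12 CPM. The primed groups did not overlap, as for 8.51% of all genes that lay higher. The log2 fold change of Thbs3 between them was 0.57 (adjusted p = 0.0177 by edgeR). The call was lost without Spl-primed replicate 1 (0.0596), Tu-primed replicate 2 (0.0585) or Tu-primed replicate 3 (0.0751), and with length offsets in DESeq2 (0.726).

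Trim46, a microtubule-organizing gene on the opposite strand, ends 795 bases after Muc1. It had 1.14, 1.01, 1.43 and 1.56 CPM in Tu-primed, 0.533, 0.799, 0.617 and 1.04 in Spl-primed and 0.741, 0.535, 0.671 and 0.52 in parental libraries. Its log2 fold change between the primed groups was 0.78 (adjusted p = 0.0696 by edgeR), and without Spl-primed replicate 4 it was 0.99 (0.0357). Mtx1, encoding a mitochondrial import protein, lies 1968 bases before Muc1 on the minus strand and stood at -0.10 between the primed groups (adjusted p = 0.45 by edgeR). Its annotated span overlaps that of Thbs3 on the other strand, and whether the quantification used strand is not given in the sources used here.

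Against parental cells 4 of the 13 neighbours rose and 4 fell in Tu-primed cells, near the 31.2% and 28.0% of all genes. In Spl-primed cells 4 rose and 2 fell, beside 25.7% and 22.5% of all genes. Of the nearest genes, Thbs3 and Trim46 rose in Tu-primed cells, by 1.04 (adjusted p = 2.84e-05 by edgeR) and 1.05 (0.00297), and Mtx1 stood at -0.27 (0.0075). The Trim46 call was lost with length offsets in DESeq2 (0.427). In Spl-primed cells Thbs3 rose by 0.47 (adjusted p = 0.0139 by edgeR), a call lost with length offsets in DESeq2 (0.197). Trim46 (0.27) and Mtx1 (-0.16) were not called there. Clk2, a kinase of splicing factors, had 43.4 to 49.3 CPM in Tu-primed, 40.5 to 50.8 in Spl-primed and 18.6 to 22.7 in parental libraries. It rose in both, by 1.25 and 1.28 on the log2 scale, and the primed groups overlapped for it, unlike for Muc1. Efna1, an ephrin ligand gene, rose in both (0.49 and 0.34), and Krtcap2, a subunit of the oligosaccharyltransferase, fell in both (-0.41 and -0.43). In TPM Krtcap2 was not lower, at 118 in Tu-primed, 111 in Spl-primed and 108 in parental cells. Nor was Mtx1, at 139, 145 and 122 in the same order.

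**Figure D4:**
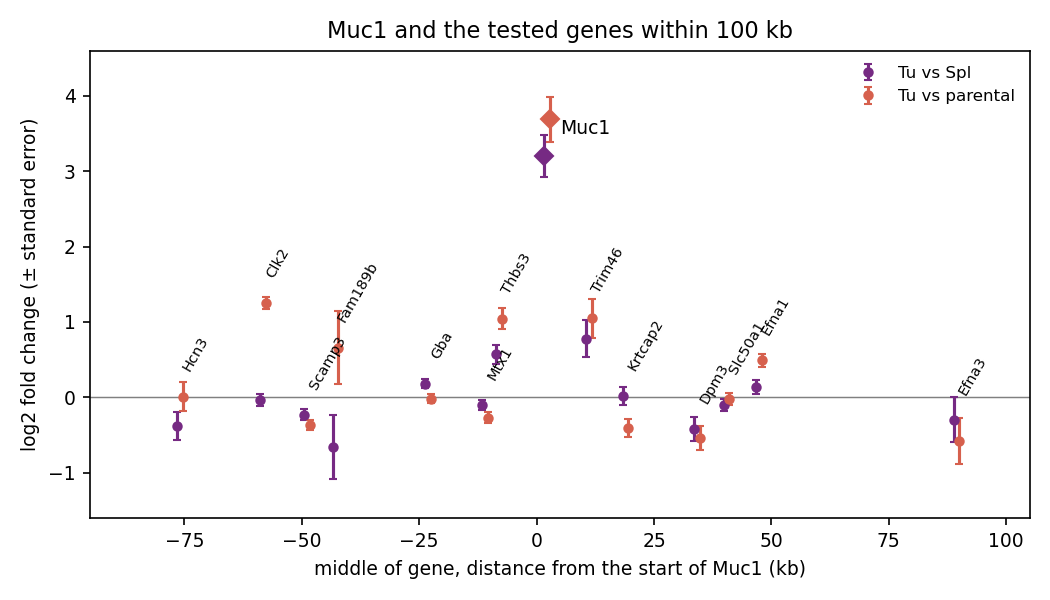
Log2 fold changes of Muc1 (diamonds) and the tested genes within 100 kb (points), with bars of 1 standard error, for Tu-primed against Spl-primed and against parental cells, by distance from the start of Muc1 in kilobases. Between Tu-primed and Spl-primed cells Muc1 stands at 3.20, and the 3 nearest neighbours, Trim46, Mtx1 and Thbs3, at 0.78, -0.10 and 0.57.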

How the data were processed

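RNA was measured by stranded RNA-seq (TruSeq) in 12 libraries of 4T1 cells, 4 a group, grouped by the labels. Per the labels and the submitters' processing notes, the authors trimmed reads with Trimmomatic 0.39 after FastQC and quantified transcripts with Salmon 1.4.0 on GRCm38. The deposited files hold estimated counts (NumReads, not whole numbers) and TPM per transcript, and a deposited table holds signal per gene, labelled normalized counts. Normalized values entered only as a comparison scale. Of 117081 transcripts, 116021 matched the GENCODE annotation. The release the authors used is not given in the sources used here, and between 0.326 and 0.419% of reads lay outside it.

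Estimated counts were summed over transcripts to genes, rounded, filtered (filterByExpr, 12555 genes kept) and fitted with edgeR 4.0.16 (TMM, quasi-likelihood, 12 libraries in 1 fit, Benjamini-Hochberg, adjusted p under 0.05) in R 4.3.3. CPM used TMM-scaled library sizes, and log2 CPM a prior count of 2. DESeq2 1.42.0 and limma 3.58.1 served as alternatives. On simulated data with 200 genes changed 2-fold, 190 were found and 10 of 12463 genes were called falsely in the Tu-primed against Spl-primed comparison. Named genes were Muc1 and its transcripts, all listed mucins, up to 4 called members a list, comparison and direction with the smallest p, the 10 genes most like Muc1 and all genes within 100 kb. Muc1 and the lists were chosen with earlier results of these data known. St6galnac2 has several Ensembl entries, of which the one with the most reads was used.

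Libraries that shared a replicate number between groups had correlations of deviations from -0.164 to 0.148. Whether the numbers pair libraries is not given in the sources used here, and these correlations cannot settle it. The labels put Gr1+ cell isolation at day 21. Some members of the partner and regulator lists are counted but not reported here by name.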

Additional observations from a re-analysis of the deposited data

Results flagged for a closer look

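In 11 of 195 sets of 4 libraries (5.64%) the highest or lowest library stood far from the other 3, by Dixon's test of its gap against the range. Chance marks about 1 set in 20, so this share is near what chance gives. Muc1 was not among them in any group. All values here are log2 CPM.

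Among neighbours of Muc1, Clk2 was lowest in Spl-primed replicate 1 at 5.34 (others 5.64 to 5.67) and highest in parental replicate 2 at 4.51 (others 4.22 to 4.24). Dpm3 was lowest in Spl-primed replicate 4 at 2.10 (others 2.38 to 2.39), and Efna3 highest in Spl-primed replicate 2 at -0.08 (others -0.45 to -0.39). Among O-glycosylation genes, Galnt11 was highest in Spl-primed replicate 2 at 4.51 (others 4.30 to 4.31) and St3gal2 lowest in Spl-primed replicate 3 at 6.23 (others 6.35 to 6.36).

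Among partners and regulators, Hsp90aa1 was highest in Spl-primed replicate 1 at 11.18 (others 11.02 to 11.03), Prkcd lowest in the same library at 5.84 (others 5.95 to 5.96), and Hif1a highest in parental replicate 1 at 9.19 (others 9.11 to 9.12). Among the genes most like Muc1, Ly6a was lowest in Spl-primed replicate 4 at 0.41 (others 0.46 to 0.48) and Oas1g lowest in parental replicate 4 at -1.08 (others -0.20 to -0.16).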

How the results depend on the processing

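Over 12 other settings the log2 fold change of Muc1 ranged from 3.14 to 3.33 (Tu-primed against Spl-primed), 3.49 to 3.94 (Tu-primed against parental) and 0.21 to 0.61 (Spl-primed against parental). On leaving out 1 library it ranged from 3.01 to 3.41, 3.52 to 3.90 and 0.37 to 0.68, within 1 pooled SD of 0.42. The replicate block gave 3.15, 3.65 and 0.50, and no listed count moved by over 1.5 times under it. The block ended the calls of Cd164 between the primed groups (adjusted p = 0.0611 by edgeR) and of Ifi27 between Spl-primed and parental cells (0.0683), and of no other named gene. Whether the shared numbers pair the libraries is not known. The number of listed genes called lower between Tu-primed and Spl-primed cells was 2, and 1 with DESeq2 with length offsets or at an adjusted p under 0.01. On leaving out 1 library it ranged from 1 to 3, with 1 without Tu-primed replicate 3, where Lyn lost its call. The cause was not tested. Of 183 results for single named genes 17 gained and 19 lost a call under at least 1 setting, and none changed sign while called. Directions against parental cells also depended on the scale. Called lower in Tu-primed than parental cells, Podxl, St3gal2, Mtx1, Krtcap2, Cdh1, Aph1a, Psenen, Gata3 and Rela had higher mean TPM in Tu-primed cells. Among genes lower on both scales were St6galnac4, Galnt2, Psen2, Hspa8, Krt8, Krt18 and Krt7. On the TPM scale the lowest share of Muc1 on Muc1-201 was 50.9% against 89.2% of reads, in parental replicate 2. Depth limits Muc1 most in Spl-primed and parental libraries, which held 11 to 24 of its reads each.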
